A study of Mus musculus with 8 samples.

Results

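The AP-1 family was examined in the transcriptomes of mouse embryonic stem cells (mESCs) with and without the nuclear transporter Importin-13 (IPO13). Its 9 members were chosen by gene symbol among the 23420 symbols of the count files, and they are the FOS subunits *Fos*, *Fosb*, *Fosl1* and *Fosl2*, the JUN subunits *Jun*, *Junb* and *Jund*, and the partners *Atf3* and *Maff*. All 9 were detected and tested. RNA-seq was performed on 8 libraries in 4 groups of 2, namely untreated IPO13+/+ cells (WT-NS), IPO13+/+ cells exposed to 125 µM H2O2 for 1 h and left for 2 h in fresh medium (WT-ST), and the same for IPO13-/- cells (KO-NS and KO-ST). All groups were blastocyst-derived lines of 129 x C57BL/6 background grown on gelatin without feeder cells, with serum and LIF. The sources name an IPO13+/+ and an IPO13-/- line without saying how many clones stand for each, so genotype and clone cannot be told apart. Whether untreated cells also had their medium changed is not stated in the sources used here. Exposure to H2O2 and the change of medium therefore cannot be told apart, and treatment with H2O2 below stands for both together. The libraries of a group are not stated to be separate cultures, so the p-values measure only the spread between libraries, which may be technical.

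AP-1 is a dimer of basic leucine zipper proteins. FOS proteins do not pair with each other and need a JUN partner to bind DNA, whereas JUN proteins can pair among themselves, with FOS, or with members of the ATF and MAF groups. *Fos*, *Fosb*, *Jun*, *Junb* and *Atf3* are classical immediate-early genes, whose transcripts appear within minutes of growth factor or stress signals through MAP kinases and are rapidly degraded. H2O2 is a common oxidative stressor for such experiments.

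Between 60397877 and 73789079 reads were counted on genes in each library, which places the smallest share told from 0 (3 counts, counting error only) between 0.0407 and 0.0497 CPM, the count scaled to the library total. *Ipo13* itself was lower in all 4 IPO13-/- libraries, with 1555 to 1965 counts against 4716 to 4928 (log2 fold change -1.44 untreated and -1.48 treated). The 10 markers of pluripotent cells, such as *Pou5f1* and *Sox2*, were all present. Their summed level was 7490 to 7970 CPM in the IPO13+/+ libraries and 6630 to 6800 CPM in the IPO13-/- libraries. In untreated IPO13-/- cells 5 of the 10 were lower, with *Dppa5a* (log2 fold change -0.59) and *Tfcp2l1* (-0.47) changing most. Another 2 were higher, *Utf1* (0.26) and *Nanog* (0.11). At an FDR below 0.05, 19.4% of all tested genes were lower and 18.7% higher in untreated IPO13-/- cells. In treated ones 17.5% were lower and 19.1% higher. The counts of markers here and below are to be read beside these shares. Markers of fibroblasts or feeder cells summed to between 24.6 and 26.1 CPM in WT-NS, 29.4 and 29.6 in WT-ST, 27.1 and 29.5 in KO-NS, and 32.1 and 32.9 in KO-ST, and 7 of the 10 were below 1 CPM in every library. Primitive endoderm markers (9, of which 2 were below 1 CPM throughout) summed to 139 to 198 CPM, lower in both IPO13-/- groups than in both IPO13+/+ groups. Most of that sum was *Lamb1*, with means of 128 CPM in WT-NS, 149 in WT-ST, 93.2 in KO-NS and 114 in KO-ST. Of the 9, 3 were lower and 0 higher in IPO13-/- cells, both untreated and treated, where 19.4% and 17.5% of all tested genes were lower. *Gata6* was at 1.10 CPM in WT-NS and 1.12 in KO-NS, and at 0.796 in WT-ST and 0.827 in KO-ST. Trophectoderm markers (9, 2 below 1 CPM) summed to 105 to 122 CPM. Behind the latter sum 5 of the 9 were lower and 2 higher in untreated IPO13-/- cells (median log2 fold change -0.42), and 5 lower and 3 higher in treated ones (median -0.78), with *Krt8* at -1.25, *Krt7* at -1.08, *Krt18* at -0.89 and *Tfap2c* at 0.86 untreated. The part of these cells in the results was not tested, and in RNA of whole cultures fewer cells with a transcript and less RNA per cell cannot be told apart.

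The promoters of 5 members are shown because their transcripts span the range of behaviours described below, from *Fos*, *Fosb* and *Jun* with a smaller response in IPO13-/- cells, through *Atf3*, which rose in both genotypes, to *Maff*, with a larger response in IPO13-/- cells. Each line gives the 120 bases upstream of the RefSeq start (GRCm38.p6), 5′ to 3′ on the gene's strand, with motif matches in capitals. Their positions are chr12:85473770-85473889 (plus strand) for *Fos*, chr7:19310046-19310165 (minus) for *Fosb*, chr4:95052223-95052342 (minus) for *Jun*, chr1:191183334-191183453 (minus) for *Atf3* and chr15:79347400-79347519 (plus) for the second of the 3 *Maff* starts.
Fos: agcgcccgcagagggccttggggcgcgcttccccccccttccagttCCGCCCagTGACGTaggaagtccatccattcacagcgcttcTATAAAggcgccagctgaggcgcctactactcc
Fosb: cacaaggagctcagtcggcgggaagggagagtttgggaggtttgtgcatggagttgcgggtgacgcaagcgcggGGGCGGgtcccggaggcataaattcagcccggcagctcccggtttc
Jun: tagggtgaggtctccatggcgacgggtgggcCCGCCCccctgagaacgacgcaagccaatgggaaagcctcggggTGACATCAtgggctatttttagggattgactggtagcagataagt
Atf3: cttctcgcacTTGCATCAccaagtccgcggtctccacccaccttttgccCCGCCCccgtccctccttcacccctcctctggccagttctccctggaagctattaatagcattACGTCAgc
Maff: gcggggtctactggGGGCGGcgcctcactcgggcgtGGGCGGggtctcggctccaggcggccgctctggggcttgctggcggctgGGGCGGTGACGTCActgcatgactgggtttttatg

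In these windows the capitals of *Fos* mark, from left to right, a GC box, a shortened cAMP response element (TGACGT) and the TATA box (TATAAA). The GC box reads CCGCCC, the reverse complement of GGGCGG, and the TATA box lies 33 to 28 bases before the start. A GC box, which SP1 and KLF proteins can bind, was the only match in the 120 bases of *Fosb*, at -46 to -41. The *Jun* window held a GC box and TGACATCA at -45 to -38, a match to TGACNTCA that JUN and ATF dimers are known to bind. In *Atf3* the capitals mark TTGCATCA, then a GC box and ACGTCA at -8 to -3. TTGCATCA is the reverse complement of TGATGCAA, a form of the element of ATF4 and C/EBP. *Maff* was the member with a full cAMP response element, TGACGTCA at -29 to -22 of its second start, beside 3 GC boxes. Around its first start none of the motifs was found, and around the third no full element. The gene counts do not tell which *Maff* start was in use. The same holds for *Atf3*, whose window lies within the gene, since its annotated 5′ end is at chr1:191218039 on the minus strand.

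Over the 300 bases from 250 before to 50 after the start, searched on both strands, a GC box was held by *Fos* (1), *Fosb* (3), *Fosl2* (1), *Jun* (1), *Atf3* (5) and *Maff* (3 at the second start and 1 at the third), against 35.7% of 32851 RefSeq promoters with at least 1, 10.7% with at least 3 and 2.71% with at least 5, where matches may overlap. The full cAMP response element stood in 1.79% of all promoters, TGATGCAA in 0.895%, TATAAA in 13.6%, TGACGT in 7.51% and TGACNTCA, which includes the full element, in 8.83%. None of the windows held the AP-1 element TGANTCA (7.81% of promoters), the MAF element TGCTGAC (4.67%) or the CArG box of serum response factor (1.63%). Bases farther upstream than 250 were not searched, so an element that lies there would have been missed. The forms TGACGT and TGACNTCA were added after the letters had been seen. A match describes the letters and is neither a binding site nor a cause. *Fosl1* had no entry. The upstream part of the *Jund* window ended at chr8:70697738, ahead of the gene start at chr8:70698949 given below. Its lack of matches may therefore not describe the promoter of that gene.

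Treatment with H2O2 raised 8 of the 9 members in IPO13+/+ cells and 7 of 9 in IPO13-/- cells at an FDR below 0.05 (edgeR's quasi-likelihood test, adjusted by Benjamini-Hochberg over 19424 genes), where 11.5% and 14.9% of all tested genes rose. No member fell in either genotype, where 13.8% and 14.4% of all genes did. A rise of at least 2-fold was called for *Fos*, *Fosb*, *Fosl1* and *Atf3* in IPO13+/+ cells, against 2.75% of all genes, and for *Fosl1* and *Atf3* in IPO13-/- cells, against 2.52%. The median log2 fold change of the members was 0.81 in IPO13+/+ and 0.61 in IPO13-/- cells, and that of all tested genes was 0 in both. The levels below are CPM after TMM scaling, per library, and can be compared between libraries but not between genes.

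**Figure D1:**
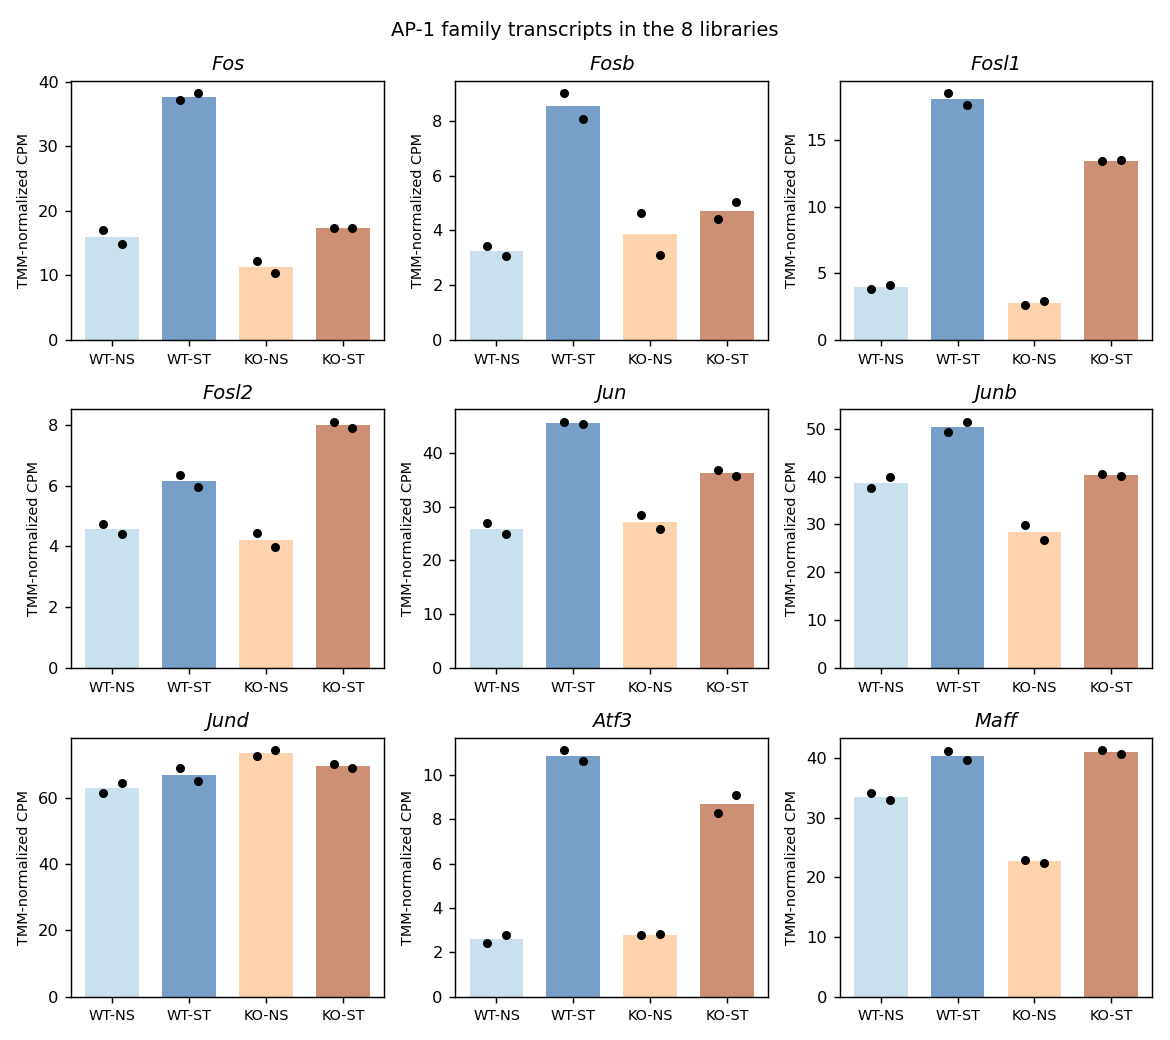
TMM-normalized CPM of each AP-1 member (y axis, from 0) in untreated and treated IPO13+/+ (WT-NS, WT-ST) and IPO13-/- (KO-NS, KO-ST) cells. Dots are single libraries and bars their mean; *Fos* reached 37.1 and 38.2 CPM in treated IPO13+/+ cells and 17.4 and 17.3 CPM in treated IPO13-/- cells, while *Fosl1* and *Atf3* rose in both genotypes.

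*Fos*, the founding subunit and the classical immediate-early gene (chr12:85473890-85477273, plus strand, GRCm38), stood at 17.0 and 14.9 CPM in the untreated IPO13+/+ libraries and at 37.1 and 38.2 CPM after H2O2. In IPO13-/- cells it stood at 12.2 and 10.4 CPM untreated and at 17.4 and 17.3 CPM treated. The treated IPO13+/+ libraries were the highest and the untreated IPO13-/- libraries the lowest, and the treated IPO13-/- libraries reached only about the level of untreated IPO13+/+ cells. The rise was 2.36-fold in IPO13+/+ cells (log2 fold change 1.24, SE 0.06, FDR = 1.4e-14) and 1.53-fold in IPO13-/- cells (0.61, SE 0.07, FDR = 1.2e-07). The response was smaller in IPO13-/- cells by 0.62 on the log2 scale (interaction -0.62, SE 0.10, 95% interval -0.82 to -0.43, FDR = 0.00021). This interaction lost the threshold without the first untreated IPO13-/- library (-0.52, FDR = 0.077) and kept it without any other single library.

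*Fosb*, which encodes FOSB and the truncated ΔFOSB (chr7:19302696-19310051, minus strand), was measured at 3.44 and 3.07 CPM in untreated and 9.01 and 8.07 CPM in treated IPO13+/+ cells, 2.62-fold higher (log2 fold change 1.39, SE 0.12, FDR = 2.5e-10). The IPO13-/- libraries held 4.65 and 3.12 CPM untreated and 4.40 and 5.03 CPM treated, so that these groups overlapped and only the treated IPO13+/+ libraries stood apart. In IPO13-/- cells the log2 fold change was 0.26 (95% interval 0 to 0.51, FDR = 0.13). The difference between the responses was the largest of the 9 members, at -1.14 (SE 0.17, 95% interval -1.49 to -0.78, FDR = 0.00016), and ranked 2 from the lowest of 12198 genes with a mean of at least 1 CPM. *Fosb* values rest on few reads, 194 to 613 counts a library, and the untreated IPO13-/- libraries differed from each other by more than those of any other group. Without the first of them (352 counts) the log2 response of IPO13-/- cells was 0.60 (FDR = 0.0096) and the interaction -0.82 (FDR = 0.083), and without the second (194 counts) the response was 0.04. Fitting only the 4 libraries compared put the *Fosb* response of IPO13-/- cells past the threshold (0.26, FDR = 0.03), within a range of 0.03 to 0.27 over all alternatives that left no library out.

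*Fosl1* encodes FRA-1, a FOS subunit without the strong transactivation domain of FOS that is itself a classical AP-1 target (chr19:5447547-5455946, plus strand). It rose from 3.79 and 4.15 CPM to 18.5 and 17.6 CPM in IPO13+/+ cells and from 2.61 and 2.90 CPM to 13.4 and 13.5 CPM in IPO13-/- cells. No group overlapped another, and both IPO13-/- groups lay below their IPO13+/+ counterparts. These were the largest fold changes of the family, 4.55-fold in IPO13+/+ (log2 2.19, SE 0.07, FDR = 2.8e-18) and 4.91-fold in IPO13-/- cells (2.3, SE 0.08, FDR = 5.7e-18), and each ranked 25 from the highest of the 12198 genes. The responses differed by 0.11 with a 95% interval of -0.13 to 0.35 (FDR = 0.75). *Fosl1* shares 1163 bases of exon with *Ccdc85b* on the other strand, and whether the counting used strand is not given in the sources used here. *Ccdc85b* had log2 fold changes of -0.19 in IPO13+/+ (FDR = 0.057) and -0.29 in IPO13-/- cells (FDR = 0.0029), opposite in sign to *Fosl1*.

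*Fosl2*, which encodes FRA-2 (chr5:32135801-32157842, plus strand), was at 4.75 and 4.42 CPM in untreated and 6.33 and 5.95 CPM in treated IPO13+/+ cells, and at 4.45 and 3.99 CPM against 8.09 and 7.89 CPM in IPO13-/- cells. The untreated groups overlapped and the treated IPO13-/- libraries were the highest. It rose 1.34-fold in IPO13+/+ (log2 0.42, SE 0.08, FDR = 0.00039) and 1.89-fold in IPO13-/- cells (0.91, SE 0.08, FDR = 1.2e-09). The interaction of 0.49 (SE 0.12, FDR = 0.019) passed the threshold in the fit of all libraries but not with limma-voom, with DESeq2 or without any 1 of 6 of the 8 libraries, where the estimate stayed between 0.42 and 0.56 and the FDR reached 0.16.

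*Jun* encodes c-JUN, the main target of the JUN N-terminal kinases (chr4:95049034-95052222, minus strand). Its libraries gave 26.9 and 24.9 CPM in WT-NS, 45.7 and 45.3 CPM in WT-ST, 28.4 and 25.9 CPM in KO-NS and 36.7 and 35.6 CPM in KO-ST. The untreated groups overlapped, and the treated IPO13-/- libraries lay between them and the treated IPO13+/+ libraries. *Jun* rose 1.76-fold in IPO13+/+ (log2 0.81, SE 0.05, FDR = 2.2e-12) and 1.33-fold in IPO13-/- cells (0.41, SE 0.05, FDR = 9.7e-07), with an interaction of -0.40 (SE 0.08, 95% interval -0.56 to -0.25, FDR = 0.0023). This call was lost without the first untreated IPO13-/- library (-0.35, FDR = 0.12) and without no other. *Jun* shares 232 bases of exon with the antisense gene *Junos*.

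*Junb*, whose product often opposes c-JUN (chr8:84974484-84978718, minus strand), was at 37.5 and 39.9 CPM in WT-NS, 49.3 and 51.4 CPM in WT-ST, 29.9 and 26.8 CPM in KO-NS and 40.6 and 40.2 CPM in KO-ST. Untreated IPO13+/+ cells and treated IPO13-/- cells were thus at close levels, and no groups overlapped. The rise was 1.30-fold in IPO13+/+ (log2 0.38, SE 0.05, FDR = 2.3e-06) and 1.42-fold in IPO13-/- cells (0.51, SE 0.05, FDR = 2.5e-08), and the interaction was 0.13 (95% interval -0.03 to 0.28, FDR = 0.46). *Junb* shares 173 bases of exon with *Prdx2* on the other strand, which had log2 fold changes of -0.02 and 0.12 with treatment.

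*Jund*, a broadly expressed subunit that is not a typical immediate-early gene (chr8:70698949-70700616, plus strand), was the member that did not pass the test in either genotype. It was measured at 61.5 and 64.5 CPM in WT-NS, 68.9 and 65.1 CPM in WT-ST, 72.6 and 74.3 CPM in KO-NS and 70.3 and 68.9 CPM in KO-ST. The 95% intervals of its log2 fold change were 0 to 0.18 in IPO13+/+ (0.09, FDR = 0.17) and -0.17 to 0.01 in IPO13-/- cells (-0.08, FDR = 0.22). Of its exon, 877 bases are shared with the antisense gene *Gm11175*.

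*Atf3*, a stress-induced factor that pairs with JUN proteins and acts mostly as a repressor on its own (chr1:191170296-191218039, minus strand), went from 2.43 and 2.78 CPM to 11.1 and 10.6 CPM in IPO13+/+ cells and from 2.77 and 2.82 CPM to 8.28 and 9.08 CPM in IPO13-/- cells. Untreated libraries of both genotypes lay together, and all treated libraries were far above them, with those of IPO13-/- cells lower. The rise was 4.15-fold in IPO13+/+ (log2 2.05, SE 0.09, FDR = 2.7e-16) and 3.10-fold in IPO13-/- cells (1.63, SE 0.09, FDR = 4e-14). The interaction was -0.42 (SE 0.13, 95% interval -0.69 to -0.15) and missed the threshold (FDR = 0.087), with an FDR of 0.032 to 0.37 over the alternatives. *Atf4* and *Ddit3*, which act with *Atf3* in the integrated stress response, had log2 fold changes of 0.13 (FDR = 0.017) and 1.00 (FDR = 4.1e-10) in IPO13+/+ cells and of 0.34 (FDR = 2.7e-07) and 0.97 (FDR = 8e-10) in IPO13-/- cells.

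*Maff*, a small MAF protein without a transactivation domain that pairs with NRF and BACH factors (chr15:79346621-79359076, plus strand), showed the other order. It stood at 34.1 and 32.9 CPM in WT-NS, 41.1 and 39.7 CPM in WT-ST, 23.0 and 22.4 CPM in KO-NS and 41.3 and 40.6 CPM in KO-ST. The untreated IPO13-/- libraries were the lowest, and the treated libraries of both genotypes overlapped. *Maff* rose 1.21-fold in IPO13+/+ (log2 0.27, SE 0.05, FDR = 9.7e-05) and 1.80-fold in IPO13-/- cells (0.85, SE 0.05, FDR = 1.8e-13). The interaction was 0.58 (SE 0.07, 95% interval 0.44 to 0.72, FDR = 8.5e-06) and passed the threshold in each of the 8 fits without a library (0.56 to 0.61, FDR at most 0.0083).

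**Figure D2:**
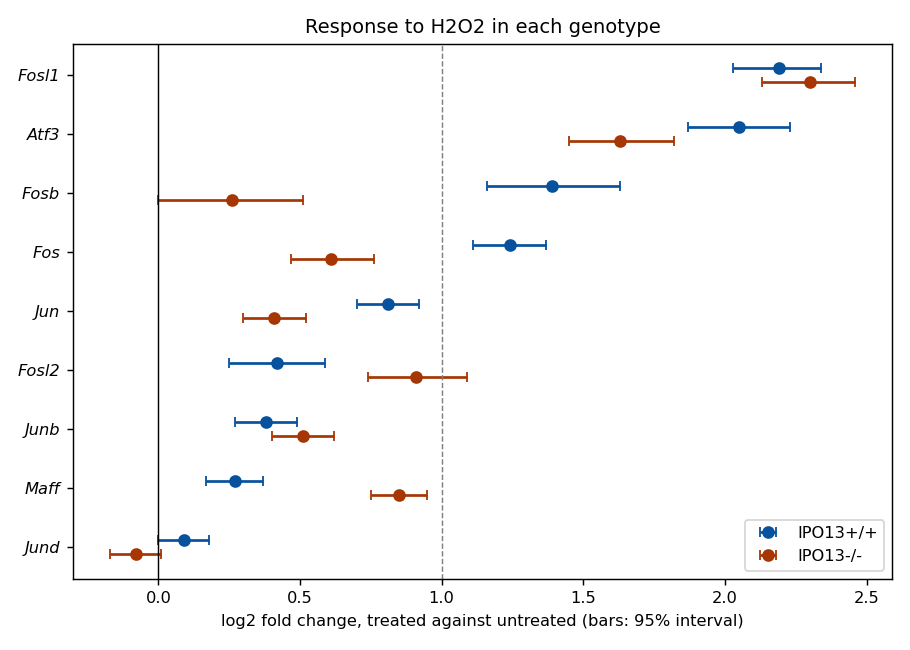
Log2 fold change of treated against untreated cells (x axis) for each member in IPO13+/+ (blue) and IPO13-/- cells (brown), with 95% intervals from the edgeR fit; the dashed line marks a 2-fold rise. *Fosl1* lies near 2.19 and 2.3 in both genotypes, whereas *Fosb* lies at 1.39 in IPO13+/+ and 0.26 in IPO13-/- cells.

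Whether the response differed between the IPO13+/+ and IPO13-/- lines was addressed by the interaction, which passed an FDR of 0.05 for 5 of the 9 members. Genotype and clone cannot be told apart in it. *Fos*, *Fosb* and *Jun* responded less in IPO13-/- cells, against 0.705% of all tested genes with a lower interaction, and *Maff* and *Fosl2* responded more, against 2.01% with a higher interaction. Treated cells were sampled at a single time, after 2 h of recovery, so the size and the timing of a response cannot be told apart. Only *Fosb* passed with a difference of 2-fold or more, against 0.0669% of all genes in that direction. *Maff* ranked 85 and *Fosl2* 145 from the highest of the 12198 genes, and *Fos* ranked 62 and *Jun* 286 from the lowest. The number of members that passed depended on the first untreated IPO13-/- library. Without it *Maff* alone passed, and 73 of 19304 genes (0.378%) were called in all. Each of the other 7 libraries could be left out with 4 to 6 members passing, and *Fosl2* was the member lost where 4 remained. The estimates kept their sign throughout for these 5 members.

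**Figure D3:**
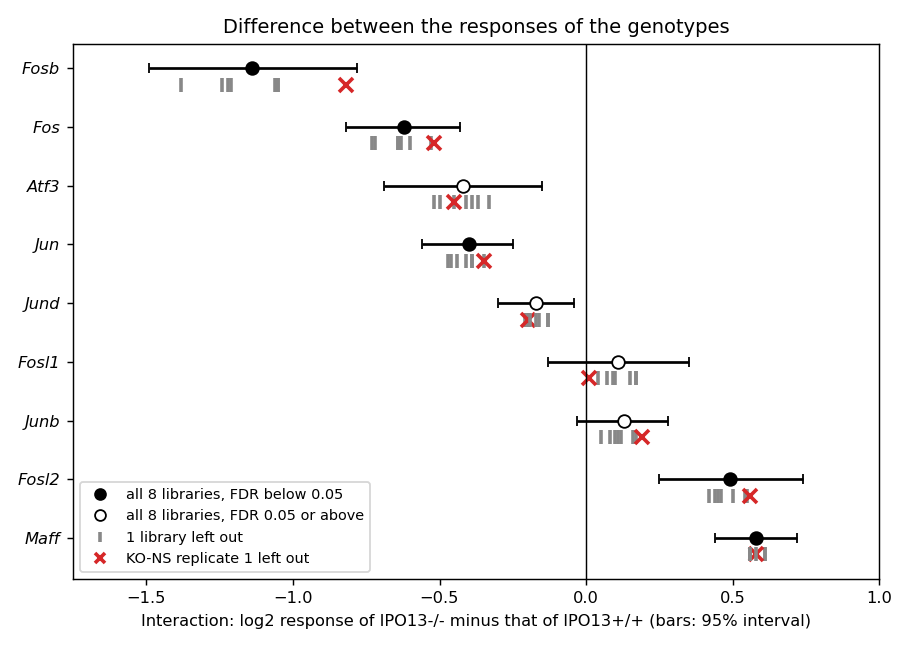
Difference between the log2 responses of IPO13-/- and IPO13+/+ cells (x axis) for each member, with its 95% interval; filled circles have an FDR below 0.05. Grey ticks and the red cross below each circle are the estimates with 1 library left out, the cross without KO-NS replicate 1, and for *Fosb* they run from -1.38 to -0.82.

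Between untreated cells, 1 member was higher and 4 were lower in IPO13-/- than in IPO13+/+ cells, where 18.7% of all tested genes were higher and 19.4% lower. None reached a 2-fold difference, against 4.71% of all genes. The 4 lower members were *Maff* (log2 fold change -0.56, SE 0.05, FDR = 8e-10), *Fosl1* (-0.53, SE 0.10, FDR = 8.5e-05), *Fos* (-0.50, SE 0.07, FDR = 2.5e-06) and *Junb* (-0.44, SE 0.05, FDR = 1.7e-07). *Jund* was the higher member, at 0.22 (SE 0.05, FDR = 0.00027). *Jun*, *Fosl2*, *Fosb* and *Atf3* did not pass, with log2 fold changes of 0.07, -0.11, 0.28 and 0.10. The *Fosb* value turned to -0.04 without the first untreated IPO13-/- library, was 0.52 (FDR = 0.0075) without the second, and had an FDR of 0.0075 to 0.91 over the alternatives.

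After H2O2, 6 members were lower and 1 was higher in IPO13-/- cells, where 17.5% of all tested genes were lower and 19.1% higher. *Fos* alone was called at 2-fold, at 0.46 of the IPO13+/+ level (log2 fold change -1.12, SE 0.06, FDR = 9.6e-14), against 1.98% of all genes. *Fosb* was lower by a log2 fold change of -0.86 (SE 0.11, FDR = 4e-07). *Fosl1*, *Jun*, *Junb* and *Atf3* were lower by smaller amounts, with log2 fold changes of -0.42, -0.33, -0.32 and -0.32. *Fosl2* was higher at 0.38 (FDR = 0.00028). *Maff*, which was lower before treatment, gave 0.02 after it (95% interval -0.08 to 0.12, FDR = 0.8), and *Jund* gave 0.05 (-0.04 to 0.15, FDR = 0.4). These comparisons share libraries with the stress comparisons above and are no independent evidence.

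Levels were set side by side between members as TMM-normalized CPM per kb of merged exons (GENCODE M21), with no test. In untreated IPO13+/+ cells the order was *Jund* (37.8 ± 1.28 CPM per kb, SD, n = 2), *Junb* (16.8 ± 0.737), *Maff* (12.9 ± 0.319), *Jun* (8.12 ± 0.451), *Fos* (6.80 ± 0.637), *Fosl1* (1.95 ± 0.128), *Atf3* (1.21 ± 0.116), *Fosb* (0.522 ± 0.0423) and *Fosl2* (0.474 ± 0.0241), and no neighbours overlapped. After H2O2 *Fos* stood below only *Jund* and *Junb* in IPO13+/+ cells, at 16.0 ± 0.335 CPM per kb (SD, n = 2), level with *Maff* at 15.6 ± 0.380, and their libraries overlapped. In treated IPO13-/- cells *Fos* stayed below *Jun* at 7.37 ± 0.0281 CPM per kb, and *Fosl1* followed closely at 6.63 ± 0.0328 without overlap. In untreated IPO13-/- cells *Maff* overlapped *Jun* (8.75 and 8.51 CPM per kb) and *Fosl1* overlapped *Atf3* (1.36 and 1.30 CPM per kb). The *Fosl1* level rests on 2033 exon bases, of which the 1163 shared with *Ccdc85b* may have lost reads if counting ignored strand, so that its place beside *Fos* and *Atf3* and its share of the FOS transcripts may be understated. *Fosl2* was the lowest member in each group except treated IPO13-/- cells, where *Fosb* was. Merged exons hold every base that is exonic in any transcript of a gene. Those of *Fosb* came to 6243 bases in 2 blocks and those of *Fosl2*, the longest of the members, to 9680 bases in 4. The level, place and share of the FOS transcripts of *Fosb* and *Fosl2* may therefore be understated as well.

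Summed over the 4 FOS subunits, the level per length was 9.77 ± 0.608 CPM per kb (SD, n = 2) in WT-NS, 26.9 ± 0.141 in WT-ST, 7.21 ± 0.636 in KO-NS and 15.6 ± 0.0707 in KO-ST. The JUN sum moved less, from 62.7 ± 1.56 to 76.3 ± 1.06 CPM per kb in IPO13+/+ and from 64.9 ± 0.849 to 70.6 ± 0.990 in IPO13-/- cells. FOS transcripts per JUN transcript were thus 0.155 in WT-NS, 0.352 in WT-ST, 0.111 in KO-NS and 0.221 in KO-ST. The make-up of the FOS transcripts differed as well. *Fos* gave 69.7% of them in WT-NS, 59.5% in WT-ST, 66.5% in KO-NS and 47.2% in KO-ST, while *Fosl1* gave 20.1%, 33.0%, 19.0% and 42.5%. *Jund* gave between 52.7% (WT-ST) and 67.9% (KO-NS) of the JUN transcripts. These are transcript levels, and protein was not measured in these files.

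**Figure D4:**
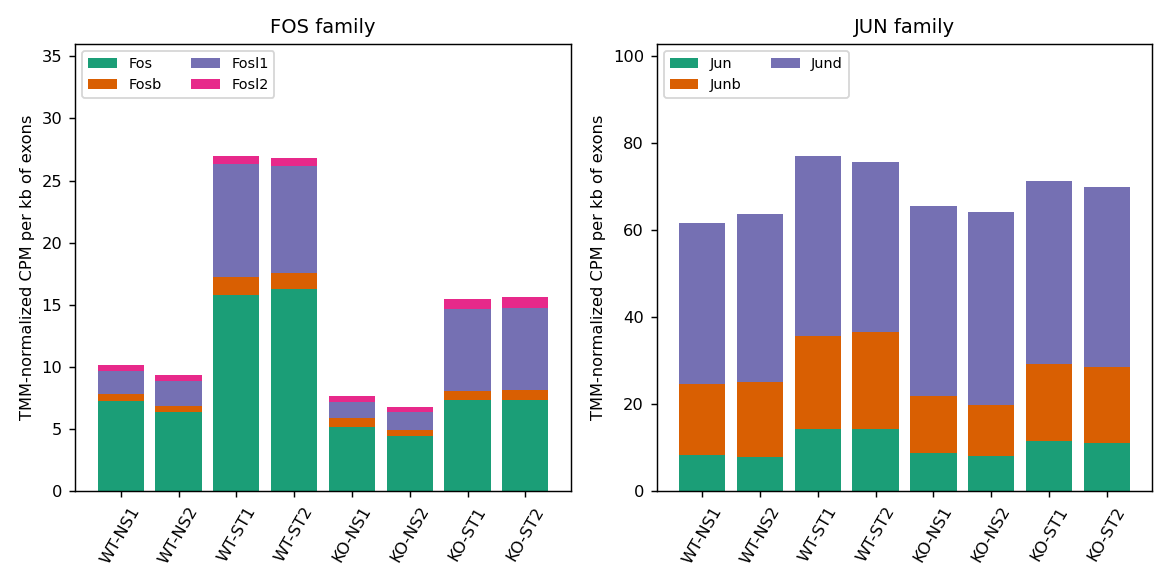
Stacked TMM-normalized CPM per kb of exons (y axis, from 0) of the FOS subunits (left) and JUN subunits (right) in each of the 8 libraries. The FOS sum is highest in both treated IPO13+/+ libraries (mean 26.9), and the *Fosl1* part of it is near that of *Fos* in the treated IPO13-/- libraries (42.5% and 47.2%).

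The 3′ untranslated regions were searched for ATTTA, the pentamer of AU-rich elements through which immediate-early transcripts are degraded. *Fos* had 4 in 815 bases (4.91 per kb, a density reached by 7.76% of 19968 genes), *Junb* 2 in 485 (4.12 per kb, 11.9%), *Maff* 4 in 1221 (3.28 per kb, 19.1%) and *Jun* 4 in 1233 (3.24 per kb, 19.4%), where the median gene had 1.34 per kb. *Atf3* (2.53 per kb), *Jund* (1.88), *Fosl2* (1.72) and *Fosl1* (1.57) lay nearer the median. *Fosb* was the sparsest, with 1 in 2302 bases (0.434 per kb, reached by 66.8% of genes). For *Fos* and *Maff*, whose responses differed between the genotypes in opposite directions, the 30 bases that hold 2 pentamers are shown with these in capitals, at chr12:85477090-85477119 (plus strand) and chr15:79358888-79358917 (plus strand) of GRCm38.
Fos: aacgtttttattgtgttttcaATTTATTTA
Maff: acaaataaatcacATTTAatcttatATTTA

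The genes with the most similar profiles over the 8 libraries were found by Euclidean distance of centred log2 CPM among the 12198 genes, as a description. *Maff* had the closest neighbour of all members, *Sqstm1* (distance 0.0624), which encodes the autophagy receptor p62 and changed by 0.27 and 0.84 on the log2 scale with treatment in IPO13+/+ and IPO13-/- cells, followed by *Cd24a* (0.165) and *Bach1* (0.171). The neighbours of *Fos* were *Hspa1a*, an inducible HSP70 gene (0.432), *Zfp362* (0.443) and the noncoding RNA *Neat1* (0.447). *Fosb* was farthest from any gene, with *Sbsn* (0.529), *Ppp1r13l* (0.680) and *Gm9079* (0.688). *Fosl1* was nearest to *Zfp750* (0.349), *Ltb4r2* (0.361) and *Scn3b* (0.365), and *Atf3* had *Casp14* (0.388) and *Tec* (0.393) among its 3 nearest. *Jun* was nearest to *Map3k12* (0.220), *Yeats2* (0.230) and *Retsat* (0.244), and *Fosl2* to *Cdc14a* (0.210), *Wdr81* (0.229) and *Icam1* (0.259). *Junb* lay beside *Mlycd* (0.143), *Ei24* (0.149) and *Cd81* (0.158), and *Jund* beside *Tmem106c* (0.0794), *Xrcc2* (0.0866) and *Gdpgp1* (0.0897). Among the members themselves the closest pair was *Junb* and *Maff*, at 0.420.

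The genes around AP-1 are given as counts beside all tested genes, of which 11.5% rose and 13.8% fell with treatment in IPO13+/+ cells and 14.9% rose and 14.4% fell in IPO13-/- cells, with a median of 0, and of which 2.01% had a positive and 0.705% a negative interaction that passed. Of 19 other leucine zipper genes that can pair with AP-1 or MAF proteins, 8 rose and 3 fell in IPO13+/+ cells, and 9 rose and 3 fell in IPO13-/- cells. Their median log2 fold changes were 0.01 and 0.24. *Maf* had 11 and 10 counts in WT-NS and 33 and 29 in WT-ST (log2 fold change 1.55, FDR = 0.0011), and 1 and 3 counts in KO-NS and 27 and 26 in KO-ST (3.77, FDR = 1.8e-06), all very low levels. The interaction passed for *Bach1* (0.64, FDR = 5.8e-06), the repressor that binds with small MAF proteins, and for *Nfe2l2* (0.25, FDR = 0.036), which encodes the antioxidant factor NRF2. *Bach1* stood at 88.2 ± 9.49 CPM (SD, n = 2) in WT-NS, 104 ± 0.200 in WT-ST, 61.3 ± 1.09 in KO-NS and 113 ± 3.37 in KO-ST. Its interaction passed with any single library left out (FDR = 0.027 without KO-NS replicate 1), whereas that of *Nfe2l2* was lost without either treated IPO13+/+ library or either untreated IPO13-/- library, among others (0.19, FDR = 0.44 without KO-NS replicate 1).

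Of 28 MAP kinase pathway genes, which carry the signal to AP-1, 3 rose and 4 fell in IPO13+/+ cells and 3 rose and 2 fell in IPO13-/- cells, none by 2-fold and with medians of 0 and 0.01, and no interaction passed, where 2.71% of all genes did. Untreated IPO13-/- cells had 50 and 40 counts of *Mapk10*, the JNK3 gene, against 18 and 13 (log2 fold change 1.52, FDR = 5.9e-05). Among 16 factors that bind AP-1 gene promoters, none rose and 6 fell in IPO13+/+ cells, and 1 rose and 6 fell in IPO13-/- cells (medians -0.12 and -0.06). *Srf* fell in both (-0.19 and -0.22, FDR = 0.0039 and 0.00053) and was higher in untreated IPO13-/- cells (0.38, FDR = 2e-07). *Klf4* fell as well (-0.18 and -0.27, FDR = 0.00078 and 3.7e-06), while *Sp1* did not pass (-0.06 and -0.03, FDR = 0.51 and 0.75). No interaction passed in this list, and those of *Srf*, *Klf4* and *Sp1* were -0.04, -0.09 and 0.03.

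Of 11 phosphatases of MAP kinases, which end the signal to AP-1, 4 rose in IPO13+/+ cells and 6 rose and 1 fell in IPO13-/- cells (medians 0.08 and 0.30). *Dusp2* rose in IPO13+/+ cells, with 34 and 27 counts before and 136 and 130 after treatment (log2 2.12, FDR = 3.8e-10), and in IPO13-/- cells, with 56 and 43 before and 114 and 132 after (1.43, FDR = 7.7e-08). The interaction was positive for *Dusp4* (0.75, SE 0.07, FDR = 4.8e-07) and *Dusp5* (0.57, SE 0.09, FDR = 0.00028). *Dusp4* stood at 25.2 ± 0.336 CPM (SD, n = 2) in WT-NS, 30.1 ± 0.531 in WT-ST, 24.1 ± 1.13 in KO-NS and 48.4 ± 2.54 in KO-ST. Both interactions passed with any single library left out, with an FDR of 0.0018 and 0.048 without KO-NS replicate 1.

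Among 14 regulators of mRNA and protein turnover, 5 rose and 4 fell in IPO13+/+ cells, and 5 rose and 5 fell in IPO13-/- cells (medians -0.05 and -0.02). *Btg2*, an antiproliferative gene that promotes deadenylation, rose with log2 fold changes of 1.53 (FDR = 3.3e-19) and 1.78 (FDR = 1.2e-20), and *Btg1* with 0.73 (FDR = 1.1e-11) and 1.26 (FDR = 1.9e-16). The interaction was positive for *Btg1* (0.52, FDR = 7.3e-05), *Cnot8* (0.27, FDR = 0.0089) and *Btg2* (0.25, FDR = 0.04), and negative for *Zfp36l1* (-0.30, FDR = 0.0091), which encodes a protein that binds AU-rich elements and fell in both genotypes. None of these 4 passed without KO-NS replicate 1 (FDR = 0.051 for *Btg1*, 0.2 for *Cnot8*, 0.44 for *Btg2* and 0.22 for *Zfp36l1*), and the last 3 were lost without several other libraries as well.

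Of 26 tested classical AP-1 targets (29 listed), 11 rose and 4 fell in IPO13+/+ cells, and 12 rose and 3 fell in IPO13-/- cells, with medians of 0.19 and 0.45 on the log2 scale. The interaction passed for 6, all positive, against 2.01% of all tested genes, the largest being *Plaur* (0.81, SE 0.06, FDR = 1e-08), *Sqstm1* (0.58, SE 0.06, FDR = 5.3e-07), *Hmox1* (0.45, SE 0.05, FDR = 9.6e-06) and *Vim* (0.33, SE 0.06, FDR = 0.0011). *Plaur*, the urokinase receptor gene, was at 81.8 ± 0.835 and 88.1 ± 1.11 CPM (SD, n = 2) in untreated and treated IPO13+/+ cells and at 37.6 ± 0.536 and 71.1 ± 2.91 CPM in IPO13-/- cells. *Hmox1*, the heme oxygenase gene, was at 222 ± 0.0790 and 329 ± 2.55 CPM against 123 ± 3.01 and 249 ± 1.84 CPM. *Cd44*, the hyaluronan receptor gene, rose 2.76-fold in IPO13+/+ (log2 1.46, FDR = 0.00019) and 2.73-fold in IPO13-/- cells (1.45, FDR = 9.6e-07), with an interaction of -0.02 (FDR = 1). *Plau*, the urokinase gene, rose 1.86-fold in IPO13+/+ (log2 0.90, FDR = 0.015) and 2.24-fold in IPO13-/- cells (1.16, FDR = 0.0026). Both were under 2 CPM in every group mean. *Vim*, which encodes an intermediate filament protein, had log2 fold changes of -0.42 in IPO13+/+ (FDR = 1.2e-08) and -0.09 in IPO13-/- cells (FDR = 0.11), so that its positive interaction is a smaller fall. *Plaur*, *Sqstm1* and *Hmox1* passed with any single library left out, and *Vim* did not without KO-NS replicate 1 (0.30, FDR = 0.087). *Hmox1* and *Sqstm1* are also targets of NRF2.

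**Figure D5:**
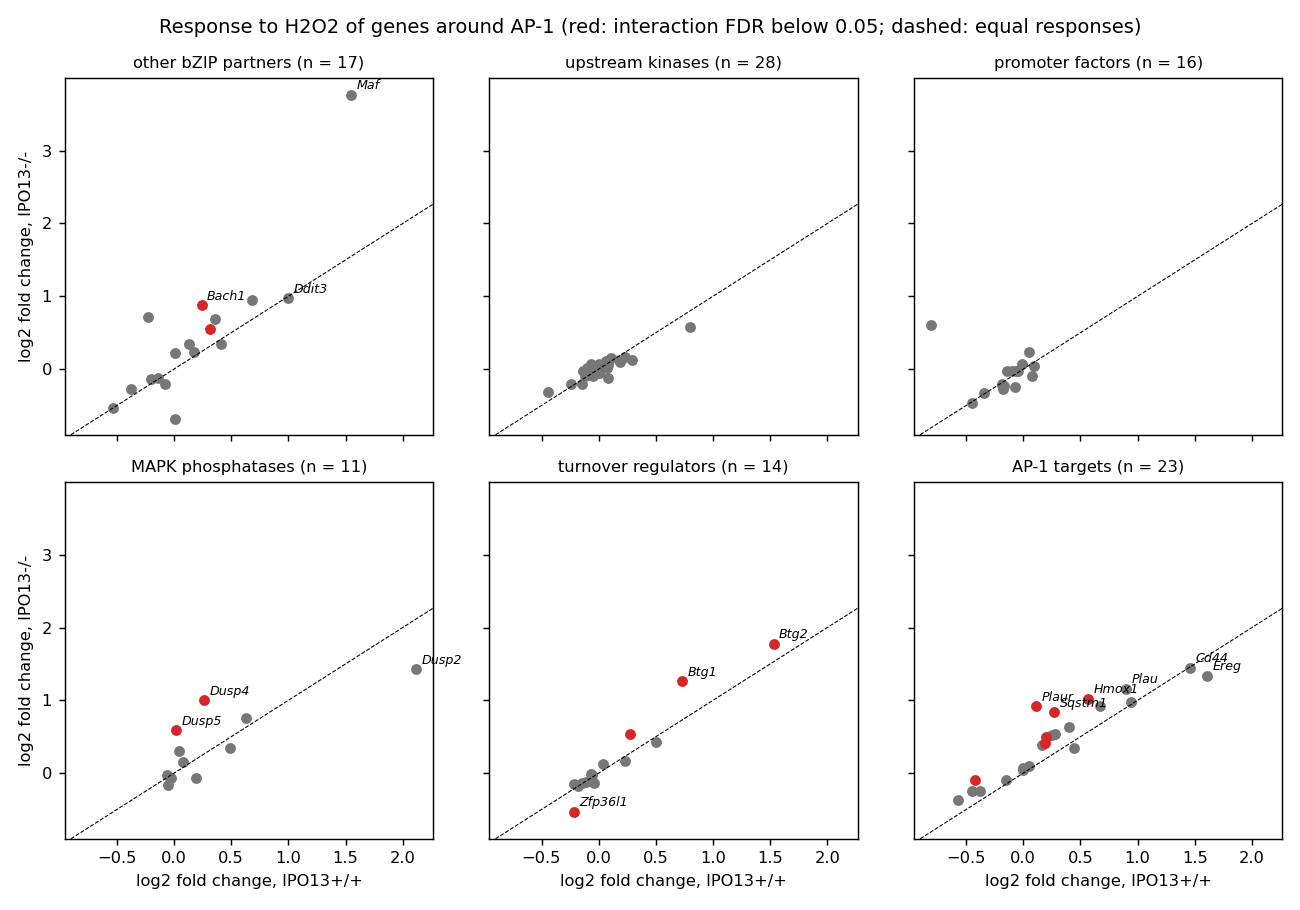
Log2 fold change with H2O2 in IPO13+/+ (x axis) against IPO13-/- cells (y axis) for 6 lists of genes around AP-1, with genes of at least 0.1 CPM in some group mean. Red points have an interaction FDR below 0.05 and the dashed line marks equal responses; *Plaur* (0.11 and 0.92), *Dusp4* (0.26 and 1.00) and *Bach1* (0.24 and 0.88) lie above it.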

How the data were processed

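RNA-seq was performed on 8 libraries of mESCs in 4 groups of 2, grouped by their labels. The authors deposited raw read counts per gene symbol and the same as CPM (each count scaled to the library total), and the deposited CPM equalled the scaled count within 0.0005 and was otherwise unused. The submitters' processing notes name bcl2fastq, STAR 2.3.1, HTSeq, limma and mm10 without a role or order. The annotation and whether counting used strand are not given in the sources used here, and the labels and the study's methods differ on the sequencer model, lanes and read length.

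The 19424 genes with at least 1 count were normalized by TMM and fitted with edgeR 4.0.16 (quasi-likelihood, R 4.3.3) in 1 model of all libraries with 1 coefficient per group, and p-values were adjusted by Benjamini-Hochberg over all tested genes. A gene rose or fell at an FDR below 0.05, and was called at 2-fold where its log2 fold change was also at least 1 in size. The study used limma-voom, which was an alternative here (limma 3.58.1), as was DESeq2 1.42.0. The SE was taken as the size of the log2 fold change over the root of its F statistic. With 2 libraries against 2, an exact permutation test cannot give a p below 0.333. The common dispersion was 0.00113. Replicates differed by more than counting noise, with a chi-square per gene of 15.0 in WT-NS, 2.26 in WT-ST, 4.58 in KO-NS and 6.59 in KO-ST, where counting noise gives about 1. The procedure was tested on simulated counts.

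The members, gene lists and motifs were chosen with earlier results of these data known. All members are named. In each list (other leucine zipper genes, MAP kinase pathway, promoter factors, phosphatases, turnover, AP-1 targets) at most 4 called genes with the largest change per comparison are named, and *Atf4*, *Ddit3*, *Srf*, *Sp1* and *Klf4* beside them. The 3 nearest profiles of each member are named, except 1 gene that is not reported here. Positions, exon lengths and 3′ untranslated regions came from GENCODE M21 (GRCm38), which held 18084 of the tested symbols, and promoters from RefSeq (GRCm38.p6), with 8 of the 9 members matched. The alternatives were other tests, scaling factors, filters, thinning to the smallest library, a replicate block, fits of only the libraries compared, and leaving out each library.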

Additional observations from a re-analysis of the deposited data

Results flagged for a closer look

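The responses of the genotypes to H2O2 differed by the interaction test for 5 members. The log2 response of IPO13-/- cells minus that of IPO13+/+ cells was -1.14 for *Fosb* (FDR = 0.00016), -0.62 for *Fos* (FDR = 0.00021), -0.40 for *Jun* (FDR = 0.0023), 0.49 for *Fosl2* (FDR = 0.019) and 0.58 for *Maff* (FDR = 8.5e-06), from edgeR's quasi-likelihood test over 19424 genes. *Maff* passed in all fits that were run. *Fosl2* passed in 5 of 10 alternatives that kept all libraries and in 2 of 8 that left one out. *Fos*, *Fosb* and *Jun* passed in 7 of the 8 fits with a library left out, the exception in each case being KO-NS replicate 1.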

How the results depend on the processing

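Over the 9 members and 5 comparisons, 45 fold changes were recomputed 846 times, and 816 of these kept their direction and their side of the threshold, 34 of the 45 doing so in every alternative. Without the fold limit, 8 members were called with stress in IPO13+/+ cells, 7 in IPO13-/- cells, 5 between the untreated and 7 between the treated genotypes. With a 2-fold limit the interaction held for 1 member, and in libraries thinned to the smallest total for 3, where *Fosb* gave -1.01 (FDR = 0.056). With 1 library left out, the members called ranged from 4 to 4 and from 2 to 3 with stress in IPO13+/+ and IPO13-/- cells, 0 to 0 and 1 to 1 between the genotypes untreated and treated, and 1 to 6 in the interaction; a group of 1 library is then assumed to vary like the others. *Maff* between the treated genotypes ranged from 0 without WT-ST replicate 2 to 0.05 with another library left out, and *Fosb* between the untreated ones from -0.04 without KO-NS replicate 1 to 0.52. The cause was not tested. Library totals in place of TMM factors put 7 members past the interaction threshold, *Atf3* (-0.49, FDR = 0.035) and *Jund* (-0.24, FDR = 0.038) being the added ones. Limma-voom, DESeq2 and the newer dispersion method of edgeR, an alternative chosen after seeing the data, each left 4. Over all tested genes the interaction called 527 by edgeR, 255 by limma-voom, 294 by DESeq2, 249 by the newer method, 204 after thinning and 678 with library totals. With 1 library left out it called 1157 and 819 without WT-NS replicates 1 and 2, 73 and 134 without KO-NS replicates 1 and 2, and 190 to 296 without a treated library.

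The replicate numbers were not shown to pair the libraries. The deviations of same-numbered libraries correlated at 0.435, 0.445 and 0.734 over 5566 genes for the pairs among WT-NS, KO-NS and KO-ST, and at -0.117 to 0.0526 for the 3 pairs with WT-ST, so libraries of 3 groups deviated together by number and those of WT-ST did not. With a replicate block in the fit, the members called were 4, 2, 0 and 1 in the stress and genotype comparisons and 6 in the interaction, where *Atf3* was added (-0.42, FDR = 0.032), and all genes called by the interaction rose to 1291. *Fosb* then passed in untreated genotypes (0.27, FDR = 0.034) and with stress in IPO13-/- cells (0.27, FDR = 0.032). Depth limits *Fosb*, *Fosl2* and *Atf3*, which rest on 163 to 752 counts a library, and the untreated *Fosl1* libraries (180 to 291).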
